A study of Mus musculus with 15 samples.

Results

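Pthlh, Crhbp, Reln and Cxcl14 encode proteins that are released from cells and that act outside the classical neurotransmitters. They were 4 of the 43629 genes listed for 15 single interneurons of the mouse hippocampus, and they were found by their symbols. The 4 genes were selected on the levels described here, as secreted proteins with high transcript levels in 1 type of interneuron, so their levels and differences between types are a description and were not tested.

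The cytosol of each neuron was drawn into a patch pipette and sequenced as 1 library. There were 5 VGT3+ cells, which express the vesicular glutamate transporter encoded by Slc17a8, 5 Pv+ cells, which express parvalbumin, and 5 Sst+ cells, which express somatostatin. All of them came from organotypic hippocampal slice cultures prepared from C57BL6 mice of postnatal day 6 to 7. That is the age at preparation of the cultures, not at the harvest of the cells. The cells were found by a TdTomato reporter that VGT3-Cre, Pv-Cre or Sst-Cre switched on in the mouse line of their type. Type therefore cannot be told apart from mouse line, animal and culture. No animal or culture was named for the cells, so each type was taken as 1 sample and an SD gives the spread between its 5 cells. The sample titles carry the code G556 for VGT3+ cells 1 to 3 and the code G709 for the remaining 12 cells. These codes were taken as batches here, though what they stand for was not stated. Values are in TPM, the share of the reads of a cell that falls on a gene after division by gene length, in parts of 1000000. An estimated 13215100 to 32171300 reads per cell lay on genes, and 5463 to 11156 genes were above 0 in a cell. Slc17a8, Pvalb and Sst were each highest in all 5 cells of the type they mark.

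The proteins act in different ways. Parathyroid hormone-related protein, the product of Pthlh, acts on the receptor Pth1r, which couples to the G protein subunit encoded by Gnas, and is best known for its role in growing cartilage. The product of Crhbp binds corticotropin-releasing hormone (CRH) and the urocortins and keeps them from their receptors. Reelin, the product of Reln, is a large glycoprotein of the extracellular matrix that guides migrating neurons and that is later released by interneurons. It binds the receptors Vldlr and Lrp8 and leads to phosphorylation of Dab1 in the receiving cell. Cxcl14 encodes a chemokine, and in the mouse hippocampus its transcript is known from interneurons born in the caudal ganglionic eminence.

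For 3 of the 4 genes, every cell of 1 type lay above all cells of the other types. This is not restriction to that type. Crhbp was at 114 TPM in Pv+ cell 4 and Reln at 34.0 TPM in VGT3+ cell 3. The lowest Pv+ cell lay above every cell of the other types for Pthlh, and the lowest Sst+ cell did so for Crhbp and Reln. No type stood apart in this way for Cxcl14, which was above 0 in 4 VGT3+, 2 Pv+ and 1 Sst+ cells. Of the 12825 genes that averaged 1 TPM or more over the 15 cells, 0.281% had all VGT3+ cells above the others, 0.733% had all Pv+ cells above the others and 0.288% had all Sst+ cells above the others. These shares stand beside 0, 1 and 2 of the 4 genes and nothing is read from them, since the genes were chosen by the same values.

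**Figure D1:**
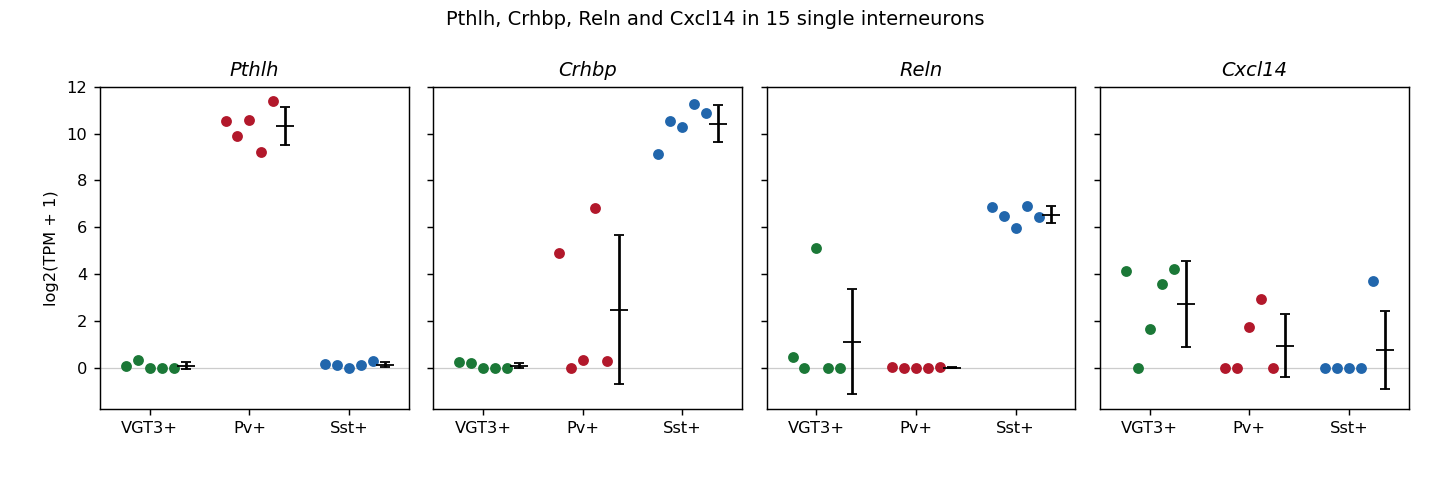
Transcript level as log2(TPM + 1), on the vertical axis, of Pthlh, Crhbp, Reln and Cxcl14 in each VGT3+, Pv+ and Sst+ cell. Points are single cells in the order 1 to 5, and the bar beside them is the mean with the SD over 5 cells. Pthlh is high in Pv+ cells, Crhbp and Reln are high in Sst+ cells, and Cxcl14 is low and scattered over the types.

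Crhbp and Reln were high in the same 5 cells, so the sequences around their start sites are shown, with that of Pthlh for the Pv+ pattern. Each window holds 250 bases before and 50 bases after the start of the RefSeq gene (GRCm38.p6), 5′ to 3′ on the strand of the gene. Capitals mark the TATA box TATAAA and the GC box GGGCGG, which were searched on both strands.
Crhbp, chr13:95444782-95445081, minus strand: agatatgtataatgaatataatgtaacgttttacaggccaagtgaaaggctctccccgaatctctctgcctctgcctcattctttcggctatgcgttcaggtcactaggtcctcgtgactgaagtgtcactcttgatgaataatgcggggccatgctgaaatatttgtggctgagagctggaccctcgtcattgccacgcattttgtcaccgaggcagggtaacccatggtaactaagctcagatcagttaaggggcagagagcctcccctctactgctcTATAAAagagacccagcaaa
Reln, chr5:22344656-22344955, minus strand: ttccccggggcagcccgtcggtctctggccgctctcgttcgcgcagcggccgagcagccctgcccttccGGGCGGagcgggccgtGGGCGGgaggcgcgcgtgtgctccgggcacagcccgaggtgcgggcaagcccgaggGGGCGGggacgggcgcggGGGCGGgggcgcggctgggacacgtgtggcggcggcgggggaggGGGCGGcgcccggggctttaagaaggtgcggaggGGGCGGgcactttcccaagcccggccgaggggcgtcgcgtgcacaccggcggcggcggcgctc
Pthlh, chr6:147263964-147264263, minus strand: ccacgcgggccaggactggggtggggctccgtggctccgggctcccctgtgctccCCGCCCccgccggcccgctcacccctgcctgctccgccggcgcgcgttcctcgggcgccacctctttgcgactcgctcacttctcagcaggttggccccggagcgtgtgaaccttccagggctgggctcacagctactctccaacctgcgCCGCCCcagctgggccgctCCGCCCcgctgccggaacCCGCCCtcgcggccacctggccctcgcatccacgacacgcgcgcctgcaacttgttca
The 2 genes that were high in Sst+ cells had windows of different composition. The Crhbp window was 48% G and C, more than in 32.0% of the 32841 RefSeq windows of this length, and held 9 CpG pairs. The Reln window was 80.7% G and C, more than in 99.2% of the windows, and held 47 CpG pairs. The Pthlh window resembled that of Reln in this respect, with 74% G and C and 33 CpG pairs. TATAAA was found once, in the Crhbp window, 31 to 36 bases into the transcript as RefSeq places its start, and 13.6% of all windows held it. GENCODE M21 places the start of Crhbp farther upstream, so that the match lies inside the gene there too, farther from its start. GGGCGG was found 6 times in the Reln window and 4 times in the Pthlh window, and 35.7% of all windows held it. The start of Pthlh is also farther upstream in GENCODE M21. The Pthlh matches that begin at -45, -26 and -8 from the RefSeq start lie inside the gene there. The Cxcl14 window (chr13:56296502-56296801, minus strand) was 62.7% G and C and held GGGCGG 3 times, with 2 of the matches overlapping. Of 3 further motifs, the core TGACG of the cyclic AMP response element was found once, in the Crhbp window (20.8% of all windows), the E-box CANNTG 2 times in the Pthlh window and once each in those of Crhbp and Reln (72.3%), and the homeodomain core TAATTA in none of the 4 (5.29%). A match is a string of letters and says nothing of binding.

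Pthlh was a gene of Pv+ cells in these libraries. It lies at chr6:147252101-147264183 on the minus strand (GRCm38, GENCODE M21, ENSMUSG00000048776), with no other annotated gene over it. In VGT3+ cells 1 to 5 it was at 0.065, 0.253, 0, 0 and 0 TPM. In Pv+ cells 1 to 5 it was at 1494, 955, 1550.4, 599 and 2674 TPM. In Sst+ cells 1 to 5 it was at 0.108, 0.070, 0, 0.074 and 0.228 TPM. The Pv+ cells did not overlap with any other cell, and the VGT3+ and Sst+ cells overlapped with each other near 0. Pthlh ranked between 49th and 237th of the genes above 0 in a Pv+ cell, with a median rank of 99.

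The reads behind these values show how close to 0 the other cells were. The values came out as whole reads at a gene length of 1603 bases, and by that length Pthlh had 0 to 5 reads in a VGT3+ cell, 8612 to 32871 reads in a Pv+ cell and 0 to 3 reads in a Sst+ cell. A count of 0 allows up to 3 reads, which was 0.152 to 0.323 TPM for Pthlh depending on the cell, and such limits cover counting error only. The difference of mean log2(TPM + 1) was -10.25 for VGT3+ minus Pv+ cells and 10.20 for Pv+ minus Sst+ cells, against an SD of 0.81 in Pv+ cells. Leaving out 1 cell at a time moved these values between -10.52 and -9.99 and between 9.94 and 10.48. For VGT3+ minus Sst+ cells the difference was -0.045, less than the SD of 0.14 between VGT3+ cells.

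Among Pv+ cells the level of Pthlh varied 4.46-fold between the lowest and the highest cell. The coefficient of variation (the SD in percent of the mean) was 54.1% over the 5 Pv+ cells, and 89.5% of the 133 genes whose mean in Pv+ cells lay within 2-fold of it varied less, with a median of 26.9%. Pv+ cell 4 had the lowest Pthlh level of the type and the highest Pvalb level, 7383 TPM. Pv+ cell 5 had the highest Pthlh level, with Pvalb at 4068 TPM. Transcripts of microglia, the immune cells of the brain, were found in most libraries. The 9 microglia markers summed to 133 to 24213 TPM in VGT3+, 4019 to 15726 TPM in Pv+ and 0.433 to 5122 TPM in Sst+ cells. In VGT3+ cells 1 and 4 that sum was 24213 and 20444 TPM, and Pthlh was at 0.065 and 0 TPM. The part of microglia transcripts in the Pthlh values was not tested.

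The receptors of parathyroid hormone-related protein were at or near 0 in these neurons, while some of its other partners were high in single cells. The related hormones Pth and Pth2 were listed at 0 in all 15 cells. The receptor Pth1r was at 0.26 TPM in Pv+ cell 5 and 0.72 TPM in Sst+ cell 4 and at 0 elsewhere, and the related receptor Pth2r was at 3.89 TPM in Pv+ cell 3 and at 0 elsewhere. Gnas, the G protein subunit that acts after the receptor, showed 1.58, 0, 75.4, 199.9 and 281 TPM in VGT3+ cells 1 to 5, and did not exceed 2.61 TPM in a Pv+ cell or 4.42 TPM in a Sst+ cell. The higher levels of Gnas were thus in cells 3 to 5 of the VGT3+ type. Of the proteases that cut prohormones, Furin reached 5.62 TPM in Pv+ cell 3, Pcsk5 reached 0.52 TPM in Sst+ cell 4, Pcsk6 reached 34.9 TPM in Pv+ cell 1 and Pcsk7 reached 90.3 TPM in VGT3+ cell 4. Only 3 of the 9 genes of this list averaged 1 TPM or more. Of these, 1 was higher and 1 lower by at least 1 log2 unit in VGT3+ than in Pv+ cells (22.7% and 24.1% of all genes tested), 1 was higher and 1 lower in VGT3+ than in Sst+ cells (22.9% and 24.7%), and 1 was higher and 0 lower in Pv+ than in Sst+ cells (22.9% and 23.2%).

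Crhbp was a gene of Sst+ cells that also appeared in some Pv+ cells. It lies at chr13:95431371-95444924 on the minus strand (ENSMUSG00000021680), with no other annotated gene over it. In VGT3+ cells 1 to 5 it was at 0.186, 0.145, 0, 0 and 0 TPM. In Pv+ cells 1 to 5 it was at 29.1, 0, 0.242, 114 and 0.232 TPM. In Sst+ cells 1 to 5 it was at 566, 1490.3, 1251, 2475 and 1879.5 TPM. The Sst+ cells did not overlap with the others, and Pv+ cells 1 and 4 lay between them and the cells near 0. Crhbp ranked between 48th and 273rd in Sst+ cells, and 851st in Pv+ cell 4, by the deposited TPM.

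The 2 Pv+ cells with Crhbp had it from many reads, an estimated 106 reads in cell 1 and 572 in cell 4, while the VGT3+ cells and the other Pv+ cells had 0 or 1 read. Sst itself was at 0 TPM in Pv+ cell 1 and at 0.19 TPM in Pv+ cell 4, and Reln was at 1 read in each. Of the 8 markers used for Sst+ oriens-lacunosum moleculare cells, Npy, the precursor of neuropeptide Y, was at 2297 TPM in Pv+ cell 1 and at 3.74 TPM in Pv+ cell 4. The difference of mean log2(TPM + 1) of Crhbp was -2.39 for VGT3+ minus Pv+ cells, within the SD of 3.18 between Pv+ cells, and it was -1.29 without Pv+ cell 4. It was -10.34 for VGT3+ minus Sst+ and -7.95 for Pv+ minus Sst+ cells, and leaving out 1 cell at a time gave -10.66 to -10.13 and -9.04 to -7.33.

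The scale of Crhbp differs from that of the other genes. Its TPM values turned into whole reads at a length of 562 bases, while the exons of the gene in GENCODE M21 cover 1800 bases and its longest coding transcript is 1779 bases. This does not touch comparisons between cells. Per 1779 bases, the mean in Sst+ cells would be 484 TPM in place of 1532 TPM, with cells between 179 and 782 TPM. With Crhbp alone rescaled and all other genes at their deposited TPM, Crhbp would rank between 181st and 870th in Sst+ cells and 2064th in Pv+ cell 4. Pv+ cell 1 would have 9.21 TPM. The same step for Reln, whose values came out whole at 19835 bases against a longest coding transcript of 11699 bases, gives a mean of 160 TPM in Sst+ cells in place of 94.2 ± 22.9 TPM (SD, n = 5 cells). On the scale per longest coding transcript, Crhbp was 0.915 times the level of Reln in Sst+ cell 1 and 3.11, 3.74, 3.92 and 4.05 times in Sst+ cells 2 to 5. Sst+ cell 1 thus stood apart from the other Sst+ cells in the balance of the 2 genes, with the lowest Crhbp and the second highest Reln level of the type.

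The peptides that the CRH-binding protein holds, and their receptors, were nearly absent. Crh, which encodes CRH, was at 81.0 TPM in Pv+ cell 1 and at 0 in the other 14 cells. That cell was also 1 of the 2 Pv+ cells with Crhbp above 10 TPM as deposited. The urocortin genes Ucn, Ucn2 and Ucn3 and the receptor Crhr2 were listed at 0 in all cells, and the receptor Crhr1 was at 1.88 TPM in Pv+ cell 3 and at 0 elsewhere. Crh alone of the 6 genes averaged 1 TPM or more, and by the mean over cells it was lower in VGT3+ than in Pv+ cells by 1.27 log2 units and higher in Pv+ than in Sst+ cells by 1.27, through that 1 cell.

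Reln was high in Sst+ cells and in a single VGT3+ cell. It lies at chr5:21884454-22344702 on the minus strand (ENSMUSG00000042453), a span of 460249 bases that 7 short genes overlap, 6 of which are listed in the table, and how reads over both were assigned was not stated. In VGT3+ cells 1 to 5 it was at 0.373, 0.0041, 34.0, 0 and 0 TPM. In Pv+ cells 1 to 5 it was at 0.0078, 0, 0, 0.0056 and 0.013 TPM. In Sst+ cells 1 to 5 it was at 115, 89.4, 62.3, 118 and 86.6 TPM. All Sst+ cells lay above VGT3+ cell 3, which in turn lay far above the remaining cells. By reads, Reln had 0 to 2 in a Pv+ cell and 7189 to 19593 in a Sst+ cell, and VGT3+ cell 3 had 4059 against 71 in VGT3+ cell 1.

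The coefficient of variation of Reln was 24.3% over the 5 Sst+ cells, and 2.17% of the 1614 genes with a mean within 2-fold of it in Sst+ cells varied less, with a median of 82.5%. Of those genes 60.3% were above 0 in all 5 Sst+ cells as Reln was, and among these 973 genes 3.60% varied less, with a median of 64.5%. For Crhbp the coefficient was 46.4% in Sst+ cells, and 63.4% of 175 genes with a similar mean varied less. The difference of mean log2(TPM + 1) of Reln was -5.42 for VGT3+ minus Sst+ and -6.53 for Pv+ minus Sst+ cells, and leaving out 1 cell at a time gave -6.42 to -5.14 and -6.67 to -6.44. For VGT3+ minus Pv+ cells it was 1.11, within the SD of 2.25 between VGT3+ cells, and it was 0.11 without VGT3+ cell 3. In batch G709 alone, which leaves VGT3+ cells 4 and 5, it was -0.0076.

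VGT3+ cell 3 differed from the other VGT3+ cells in more than Reln. It had 5463 genes above 0, the fewest of the 15 cells. The synuclein gene Sncg was at 1823 TPM there and at most 206 TPM in the other VGT3+ cells, and Cbln2, which encodes a secreted synapse organizer, was at 138 TPM and at most 0.06 TPM. The astrocyte markers Gfap and Aldh1l1 were at 267 and 261 TPM and at most 6.81 and 1.37 TPM in the other VGT3+ cells, while the astrocyte markers Slc1a3, Gja1 and S100b were at 0, Slc1a2 at 0.20 and Aqp4 at 3.37 TPM in that cell. Aldoc, which was above 100 TPM in all 15 cells, was at 3021 TPM there. Sst was at 0 TPM in that cell. The 9 microglia markers summed to 5795 TPM there, while in Sst+ cell 1 they summed to 0.433 TPM with Reln at 115 TPM. The part of these transcripts in the Reln value was not tested.

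In the developing hippocampus reelin is best known from Cajal-Retzius cells, so their markers were looked up. Trp73, Lhx1, Lhx5, Nhlh2 and Ebf3, which define these cells, were at 0 in all 15 cells, and the 8 markers summed to at most 4.04 TPM in VGT3+, 6.03 to 48.6 TPM in Pv+ and 26.4 to 215 TPM in Sst+ cells. The sums came from Calb2, which encodes the calcium-binding protein calretinin, Ndnf, a secreted neurotrophic factor, and the calcium channel subunit Cacna2d2. Calb2 was at 42.6, 136 and 33.2 TPM in Sst+ cells 1, 3 and 5, and Ndnf was at 52.7, 32.8 and 51.8 TPM in Sst+ cells 3, 4 and 5. Of the 8 markers of neurogliaform and Lamp5 interneurons, another source of reelin, Lamp5 was at 0 in VGT3+ and Sst+ cells and did not exceed 5.51 TPM in Pv+ cells. Cplx3 and Sv2c were at 0 in all 15 cells, and Kit and Nos1 did not exceed 1.28 and 2.86 TPM in any cell. Ndnf, Id2 and Npy of this list reached higher levels. The transcription regulator Id2 was at 203 to 4086 TPM in VGT3+ cells, with the highest value in cell 3, at 54.6 to 165 TPM in Pv+ cells and at 99.5 to 1221 TPM in Sst+ cells, and Npy was at 8621 to 125111 TPM in Sst+ cells. Of the markers of oriens-lacunosum moleculare cells, Pnoc, the precursor of nociceptin, was at 269 to 803 TPM in Sst+ cells, while Chrna2, a nicotinic receptor subunit often used for these cells, did not exceed 0.135 TPM in any cell. Of the 6 endothelial markers, Ly6c1 alone reached 10 TPM. It was at 70.1 to 309 TPM in 4 of the 5 Sst+ cells and at 0 TPM in Sst+ cell 3.

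Genes of the reelin pathway were present in all types. The receptor Vldlr was at 18.1, 6.33, 75.3, 76.8 and 98.9 TPM in the VGT3+ cells 1 to 5, at 5.95 TPM in Pv+ cell 3 and 0 in the other Pv+ cells, and at 24.5 and 6.06 TPM in Sst+ cells 3 and 4 and 0 in the other Sst+ cells. The receptor Lrp8 had 0 to 16.7 TPM in VGT3+, 0 to 14.8 TPM in Pv+ and 12.7 to 32.1 TPM in Sst+ cells, in which Reln itself was high. The ranges of Lrp8 in the types overlapped. The highest level of the adaptor Dab1 was 10.9 TPM among VGT3+, 15.2 TPM among Pv+ and 9.61 TPM among Sst+ cells. The kinase Fyn, which phosphorylates Dab1, averaged 104 ± 74.6 TPM over VGT3+, 32.8 ± 55.6 TPM over Pv+ and 36.4 ± 24.2 TPM over Sst+ cells (SD, n = 5 cells). Pafah1b1, which encodes the dynein regulator Lis1, averaged 27.3 ± 21.6 TPM over VGT3+, 44.9 ± 21.8 TPM over Pv+ and 31.9 ± 28.8 TPM over Sst+ cells, and the spreads of both genes overlapped. The integrin subunit Itga3 was at 64.9 TPM in VGT3+ cell 3, the VGT3+ cell with Reln, and at most 2.75 TPM elsewhere. Of the proteases that cleave reelin, Adamts3 was at 39.9 and 43.6 TPM in VGT3+ cells 2 and 5, at 19.7 TPM in Pv+ cell 3 and at 42.2 TPM in Sst+ cell 5, and Adamts2 was listed at 0. Of the 14 genes, 13 averaged 1 TPM or more. By at least 1 log2 unit, 6 of these were higher and 3 lower in VGT3+ than in Pv+ cells (22.7% and 24.1% of all genes tested), 4 higher and 5 lower in VGT3+ than in Sst+ cells (22.9% and 24.7%), and 1 higher and 4 lower in Pv+ than in Sst+ cells (22.9% and 23.2%). The median differences of the 13 genes were 0.26, -0.024 and -0.38, beside medians between -0.00045 and 0 over all genes tested.

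**Figure D2:**
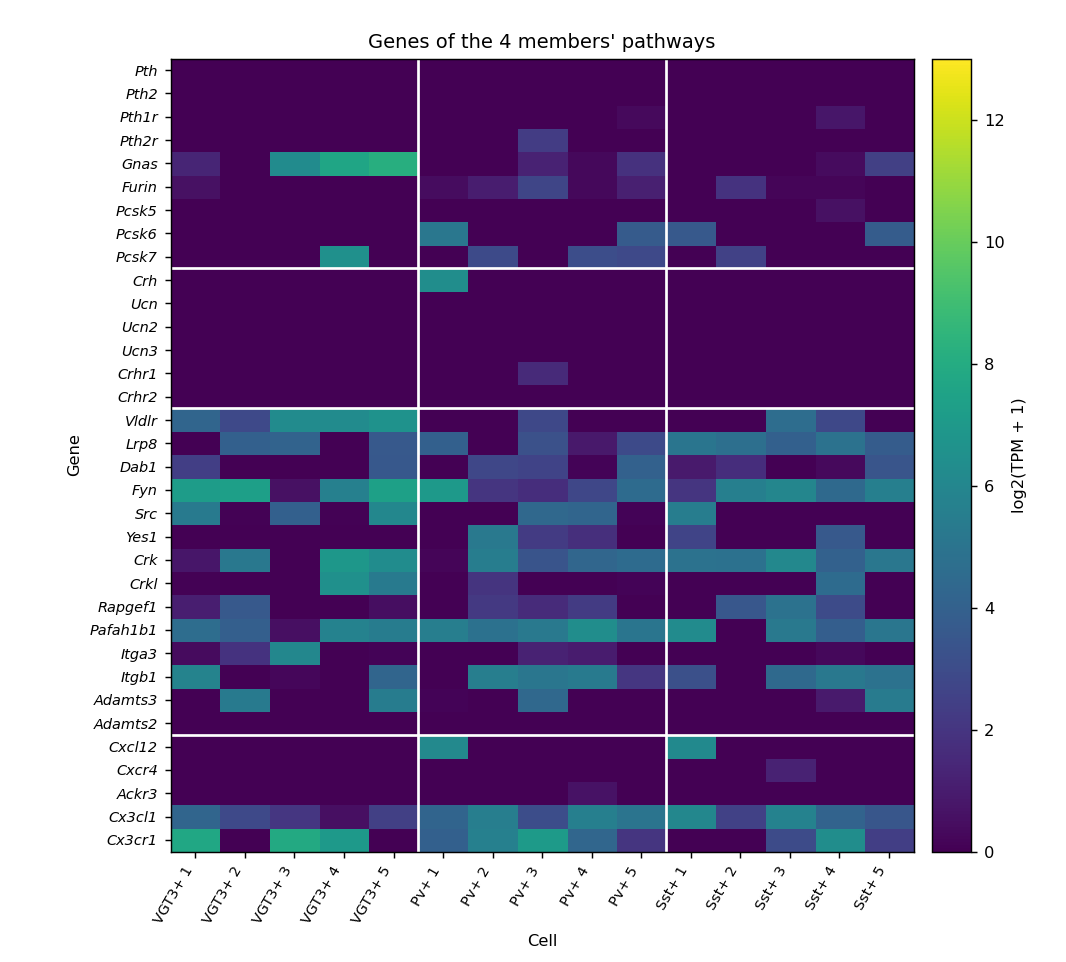
Level of the genes that act with the 4 secreted proteins, as colour for log2(TPM + 1), in each cell from VGT3+ cells on the left over Pv+ cells to Sst+ cells on the right. White lines part the types and, from top to bottom, the lists for parathyroid hormone-related protein, CRH, reelin and the chemokines. The receptors Pth1r, Crhr1, Crhr2 and Cxcr4 are dark throughout, Gnas and Vldlr are bright in VGT3+ cells 3 to 5, and Lrp8 is above 0 in all Sst+ cells.

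Cxcl14 was low and was found in some cells of each type. It lies at chr13:56288643-56296551 on the minus strand (ENSMUSG00000021508), with no other annotated gene over it. In VGT3+ cells 1 to 5 it was at 16.3, 0, 2.19, 10.8 and 17.5 TPM. In Pv+ cells 1 to 5 it was at 0, 0, 2.31, 6.73 and 0 TPM. In Sst+ cells it was at 12.2 TPM in cell 5 and at 0 TPM in the other 4. The VGT3+ cells included most of the higher values, but VGT3+ cell 2 was at 0 and Sst+ cell 5 lay within the VGT3+ range. Unlike the low values of the other genes, no value of Cxcl14 came from 1 to 10 reads: it was at 0 in 8 cells and above 10 reads in 7, with 24 to 285 reads in the 4 VGT3+ cells, 31 and 110 in the 2 Pv+ cells and 182 in Sst+ cell 5.

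The types differed in Cxcl14 by about their spread. The mean was 9.37 ± 8.00 TPM over VGT3+, 1.81 ± 2.93 TPM over Pv+ and 2.43 ± 5.44 TPM over Sst+ cells (SD, n = 5 cells). The difference of mean log2(TPM + 1) was 1.78 for VGT3+ minus Pv+ and 1.97 for VGT3+ minus Sst+ cells, beside an SD of 1.83 between VGT3+ cells. In batch G709 alone these values were 2.95 and 3.14, from VGT3+ cells 4 and 5. For Pv+ minus Sst+ cells the difference was 0.19, and it was 0.94 without Sst+ cell 5 and -0.31 without Pv+ cell 4. VGT3+ cell 2, the VGT3+ cell without Cxcl14, had the deepest library, with an estimated 32171300 reads, and a count of 0 there allows 0.134 TPM. It also held the highest level of Krt73, a marker of Cck/Sncg interneurons, at 1946 TPM, and of Npy in a VGT3+ cell, at 9121 TPM. The other Cck/Sncg markers were not highest in VGT3+ cell 2. Among VGT3+ cells, Cck was highest in cell 1 and Sncg, Adarb2 and Npas1 in cell 3. Htr3a was highest in cell 4, and Cnr1 and Slc17a8 were highest in cell 5. Vip, which marks another group of interneurons from the caudal ganglionic eminence, did not exceed 0.546 TPM in any cell. The other markers of that group were divided in VGT3+ cells. Calb2 and Penk were at 0 there and Crispld2 did not exceed 0.104 TPM, while Igf1 was at 57.8 to 481 TPM. Tac2 was at 6377, 242 and 296.5 TPM in VGT3+ cells 1, 4 and 5 and at 0 in VGT3+ cells 2 and 3.

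Cxcr4, the receptor of Cxcl12 for which an interplay with Cxcl14 has been described, was at 1.33 TPM in Sst+ cell 3 and 0 elsewhere, and the scavenger receptor Ackr3 was at 0.57 TPM in Pv+ cell 4 and 0 elsewhere. The fractalkine receptor Cx3cr1, which is also 1 of the 9 microglia markers, was at 0 to 236 TPM in VGT3+ cells, with cells 1, 3 and 4 above 100 TPM, at 3.07 to 136 TPM in Pv+ cells and at 0 to 82.3 TPM in Sst+ cells. The related chemokine Cxcl12 was at 67.5 TPM in Pv+ cell 1 and 71.0 TPM in Sst+ cell 1 and at most 0.02 TPM elsewhere. Cxcl14 did not exceed 10 TPM in Pv+ cells 1 and 4 or in Sst+ cells 1 and 3. The fractalkine gene Cx3cl1, which neurons use to signal to microglia, was above 0 in all 15 cells, at 0.43 to 18.1 TPM in VGT3+, 7.5 to 48.1 TPM in Pv+ and 4.69 to 63.0 TPM in Sst+ cells. Of the 5 genes of this list, 3 averaged 1 TPM or more, and by at least 1 log2 unit 0 of them were higher and 2 lower in VGT3+ than in Pv+ cells (22.7% and 24.1% of all genes tested), 1 was higher and 2 lower in VGT3+ than in Sst+ cells (22.9% and 24.7%), and 1 was higher and 0 lower in Pv+ than in Sst+ cells (22.9% and 23.2%).

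Set side by side, the 4 genes formed different combinations in the types. At 10 TPM or more, 3 VGT3+ cells held Cxcl14 alone, VGT3+ cell 3 held Reln alone and VGT3+ cell 2 held none of them. Of the Pv+ cells, 3 held Pthlh alone and 2 held Pthlh with Crhbp, of which cell 1 falls below 10 TPM of Crhbp per longest coding transcript. Of the Sst+ cells, 4 held Crhbp with Reln and Sst+ cell 5 held these with Cxcl14. By the difference of at least 1 log2 unit, 2 of the 4 genes were higher in VGT3+ than in Pv+ cells (22.7% of all genes tested) and 2 were lower (24.1%). Against Sst+ cells, 1 was higher in VGT3+ cells (22.9%) and 2 were lower (24.7%). Between Pv+ and Sst+ cells, 1 was higher in Pv+ cells (22.9%) and 2 were lower (23.2%). The genes were chosen by these differences, so the counts are given with no reading. In batch G709 alone, with VGT3+ cells 4 and 5, VGT3+ minus Pv+ was -10.33 for Pthlh and -2.47 for Crhbp, and VGT3+ minus Sst+ was -10.43 for Crhbp and -6.54 for Reln. For comparison, the median difference of 1709 genes detected in every cell was 0.38 for VGT3+ minus Pv+, 0.062 for VGT3+ minus Sst+ and -0.30 for Pv+ minus Sst+ cells.

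**Figure D3:**
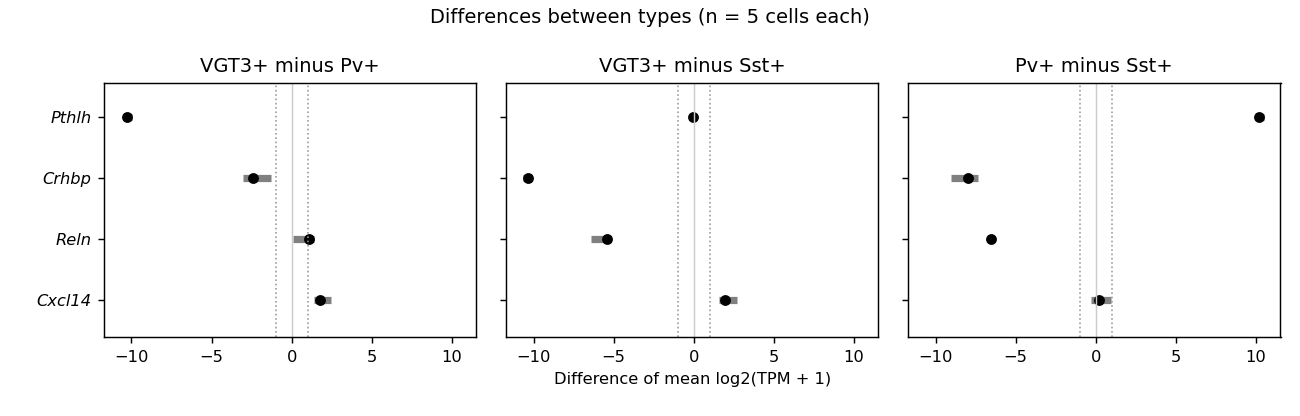
Difference of mean log2(TPM + 1) between types, on the horizontal axis, for each of the 4 genes and each pair of types. Points are the values over 5 cells a type, grey bars the range when 1 cell is left out at a time, and dotted lines mark a difference of 1 in either direction. The bar of Reln for VGT3+ minus Pv+ cells reaches down to 0.11, and those of Pthlh are narrower than the points.

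For each gene the 6 genes whose log2(TPM + 1) followed it most closely over the 15 cells were taken from 5713 genes that averaged 10 TPM or more and were above 0 in 5 cells or more. The 15 cells share 3 mouse lines and 2 batch codes. A gene that is simply present in 1 type and absent from the others gets a high Pearson r here. The order is therefore a description. For Pthlh they were Syt2 (r = 0.99), a calcium sensor of fast transmitter release, Cav3 (0.99), a caveolin known from muscle, Esam (0.97), an adhesion protein, the keratin gene Krt12 (0.96), Pvalb (0.96) and the glycogen phosphorylase gene Pygm (0.96). Syt2 lay between 27.2 and 65.5 TPM in Pv+ cells and did not exceed 0.01 TPM in the others. Cav3, Esam, Krt12 and Pygm were above 0 in all Pv+ cells and at 0 in the other 10 cells. Pvalb was at 55.1 TPM in Sst+ cell 4 and did not exceed 0.64 TPM in the remaining VGT3+ and Sst+ cells.

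For Crhbp the nearest genes included Sst (r = 0.91), the receptor gene Gpr151 (0.90), the iodide transporter gene Slc5a5 (0.87), Lypd6 (0.86) and Car10 (0.86). Gpr151 was at 55.7 to 499 TPM in Sst+ cells, and like Crhbp it was highest in Sst+ cell 4. Lypd6 and Slc5a5 were also above 1 TPM in Pv+ cell 4, at 8.02 and 3.31 TPM, but in Pv+ cell 3 too, at 6.81 and 3.11 TPM, in which Crhbp was at 0.242 TPM. For Reln they included Ldha (r = 0.92), which encodes a subunit of lactate dehydrogenase, Sst (0.91), the adenylyl cyclase gene Adcy2 (0.90), Pnoc (0.90) and Gpr151 (0.90). Ldha and Adcy2 were, like Reln, higher in VGT3+ cell 3 than in the other VGT3+ cells, with Ldha at 554 TPM against 53.5 to 105 TPM and Adcy2 at 191 TPM against 0 to 11.0 TPM. Sst and Gpr151 stood near both Crhbp and Reln, and Crhbp and Reln themselves had an r of 0.80.

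For Cxcl14 the nearest genes were less close, with Naa30 (r = 0.77), Kpna4 (0.77), Akap17b (0.74), Tbk1 (0.72), Fstl4 (0.72) and Lypd1 (0.71). Naa30 encodes a subunit of an acetyltransferase of nascent proteins and Kpna4 an importin, and neither marks a type of interneuron. Naa30 was at 32.7, 30.8 and 2.67 TPM in VGT3+ cells 1, 4 and 5 and at 85.8 TPM in Sst+ cell 5, so it shared the Sst+ cell in which Cxcl14 was found. Fstl4, which encodes a secreted follistatin-like protein, was at 0.32 to 99.3 TPM in VGT3+ cells, at most 3.19 TPM in Pv+ and at most 0.63 TPM in Sst+ cells. Lypd1 was at 56.6, 425 and 438 TPM in VGT3+ cells 1, 4 and 5, the VGT3+ cells with Cxcl14 above 10 TPM, and did not exceed 0.07 TPM in the other 12 cells.

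**Figure D4:**
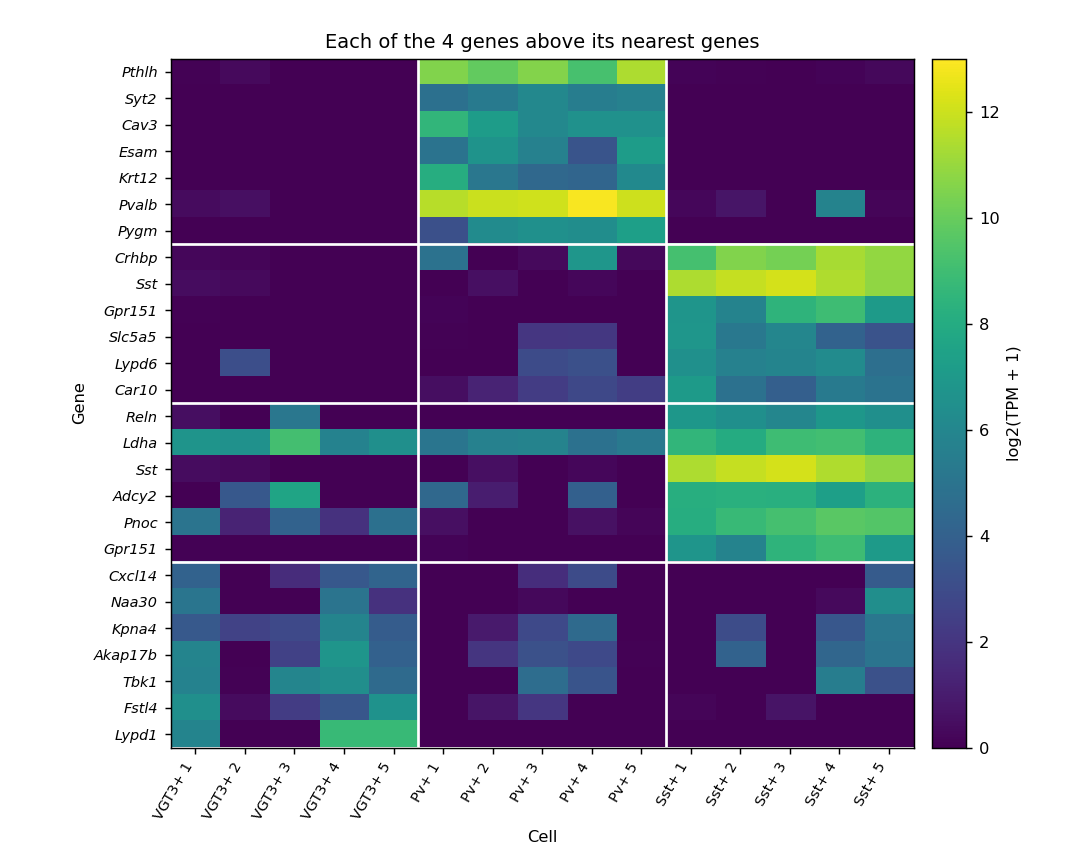
Level of Pthlh, Crhbp, Reln and Cxcl14, each as the first row of a block over 5 or 6 of the genes that follow it most closely, as colour for log2(TPM + 1), in VGT3+, Pv+ and Sst+ cells from left to right. The block of Pthlh is bright in Pv+ cells, those of Crhbp and Reln in Sst+ cells, and Ldha and Adcy2 are bright in VGT3+ cell 3 as well. The block of Cxcl14 is bright in cells of each type.

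Further secreted factors were found in single types or in single cells. Of 30 further genes for growth factors, their binding proteins and synaptic organizers, 23 averaged 1 TPM or more. By at least 1 log2 unit, 8 of these were higher and 10 lower in VGT3+ than in Pv+ cells (22.7% and 24.1% of all genes tested), 6 higher and 12 lower in VGT3+ than in Sst+ cells (22.9% and 24.7%), and 4 higher and 8 lower in Pv+ than in Sst+ cells (22.9% and 23.2%). The median differences were -0.30, -1.02 and 0. Igfbp2, which encodes a binding protein of insulin-like growth factors, was like Pthlh above 0 in all Pv+ cells, at 3.04 to 66.2 TPM in Pv+ cells and at most 0.06 TPM elsewhere. Igfbp5, of the same family, was above 0 in all Sst+ cells, at 0.79 to 235 TPM, and did not exceed 0.17 TPM in a VGT3+ or 1.73 TPM in a Pv+ cell. Nell1, which encodes a secreted glycoprotein, was at 15.2 to 70.7 TPM in Sst+ cells and at 19.9 and 23.1 TPM in VGT3+ cells 3 and 5.

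Igf1, the gene of insulin-like growth factor 1, was low in the type in which Pthlh was high. It was at 57.8 to 481 TPM in VGT3+, 0 to 11.7 TPM in Pv+ and 62.2 to 181 TPM in Sst+ cells, and Pv+ cells did not overlap with the others. The share of all genes with every Pv+ cell below the other cells was not computed, so nothing is read from this. Nxph1, whose product neurexophilin binds neurexins, was at most 0.03 TPM in VGT3+ cells, at 43.6 to 96.8 TPM in Pv+ and at 1.88 to 175 TPM in Sst+ cells. Sparcl1, of the secreted protein hevin, was above 0 in all cells but VGT3+ cell 3, with up to 470 TPM in VGT3+, 411 to 1598 TPM in Pv+ and 432 to 1971 TPM in Sst+ cells. Some factors were strong in 1 or a few cells of a type. Nov, of the growth factor binding family of Ctgf, reached 477 TPM in VGT3+ cell 2 and 26.9 TPM in VGT3+ cell 4 and was at 0 elsewhere, and Wnt5a was at 73.4 and 34.7 TPM in VGT3+ cells 2 and 5 and at most 4.05 TPM elsewhere. Nov and Wnt5a were thus, like Cxcl14, above 10 TPM in some cells of a type and at 0 in others.

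**Figure D5:**
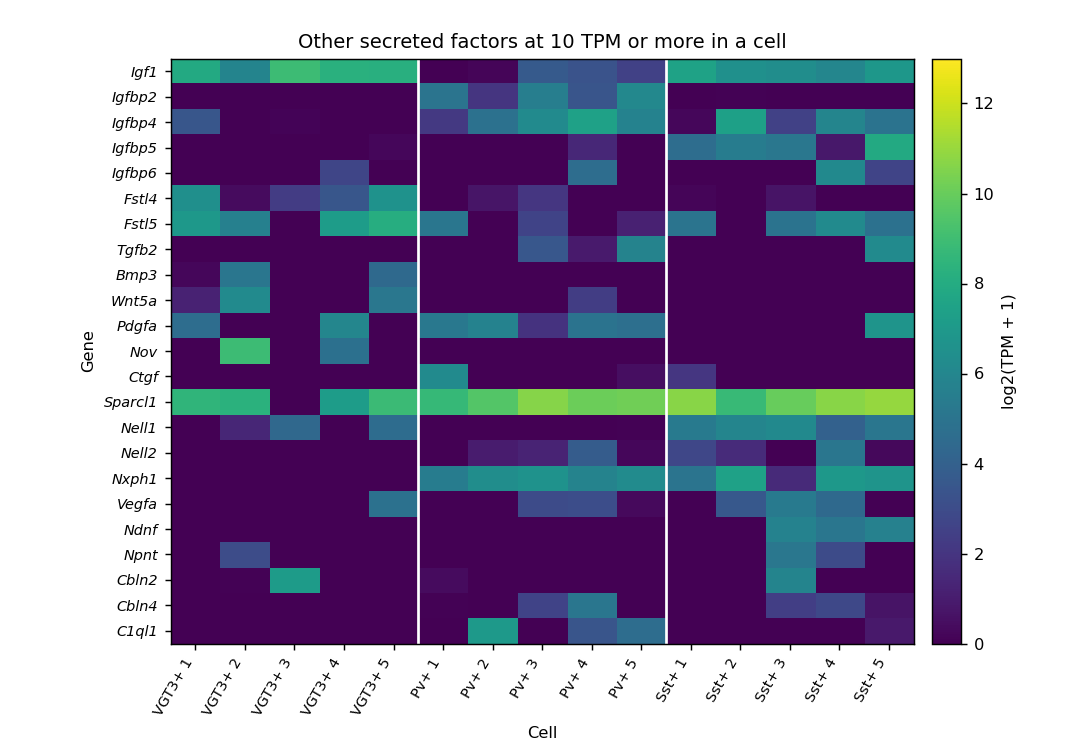
Level of further secreted factors that reached 10 TPM in at least 1 cell, as colour for log2(TPM + 1), in VGT3+, Pv+ and Sst+ cells from left to right. Igf1 is bright in VGT3+ and Sst+ cells, Igfbp2 in Pv+ cells, and Nxph1 in Pv+ and Sst+ cells, while Nov, Wnt5a and Cbln2 are bright in single cells.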

How the data were processed

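The deposited table holds TPM per gene for all 15 cells, each adding up to 1000000. To make it, the authors split the reads by cell (bcl2fastq), trimmed them (BBTools), mapped them to GRCm38 (HISAT2 2.1.0), counted them over Ensembl genes (HTSeq) and divided by gene length, and did not scale cells to each other. All 15 columns were used and 0 were left out.

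Levels, SDs over cells, ranks and differences of mean log2(TPM + 1), which understate the change of low genes, were taken in Python 3.11.15 (pandas 2.3.3, numpy 2.4.6). Genes averaging 1 TPM or more counted as tested. No p-value was computed, since each type is 1 sample. Reads per cell were estimated from TPM and GENCODE M21 exon lengths, which cover 97.3% of the listed genes. Between 71.7% and 76.3% of values under 50 reads fell within 0.01 of a whole number. For the 4 genes the length was the shortest that turned the low values into whole reads, though multiples of it would do so as well.

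By rule, values could be named for the 4 genes, for genes of 5 pathway lists and 11 marker lists that reached 10 TPM in a cell (receptors and ligands at any value), and for the 6 nearest genes of each of the 4. Not every list gene that met this is named, those named were picked after their values were seen, and some list genes are named with lower values where a sentence gives their limits. The 4 genes and the lists were chosen with earlier results of these data known. The functions were tested on simulated data with known differences. The alternatives were a pseudocount of 0.1, 2 other scalings, medians, batch G709 alone, other filters, Spearman's correlation and each cell left out in turn. Promoter sequences are from RefSeq, and all 4 genes were matched. Protein sequences were not analysed here. A gene that meets the naming rule as 1 of the nearest genes is not reported here.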

Additional observations from a re-analysis of the deposited data

Results flagged for a closer look

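Over the 5 cells of a type, 4 of the 12 combinations of gene and type held 1 cell far from the others, by Dixon's ratio of the gap to the range above 0.71. Chance alone flags about 1 in 20 groups of 5 normally distributed values. These TPM values, many of them at 0, are not distributed in that way, so that rate does not hold here. Crhbp was at 114 TPM in Pv+ cell 4, against 29.1 TPM in the next Pv+ cell. Reln was at 34.0 TPM in VGT3+ cell 3, against 0.373 TPM in the next VGT3+ cell. Cxcl14 was at 12.2 TPM in Sst+ cell 5 and at 0 TPM in the other 4 Sst+ cells. Pthlh was at 0.253 TPM in VGT3+ cell 2, which is 5 estimated reads in the deepest of the libraries.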

How the results depend on the processing

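Of 176 alternative values of the 12 differences of Pthlh, Crhbp, Reln and Cxcl14 between types, 167 stayed within 1 SD of the value reported and 2 changed the direction of a difference of at least 1 log2 unit. Both were Reln in VGT3+ minus Pv+ cells, at -0.0022 with medians over cells and -0.0076 in batch G709 alone. The SD used was the larger of those of the 2 types compared. For VGT3+ minus Pv+ cells it was 3.18 for Crhbp and 2.25 for Reln, so large shifts stayed within it. Crhbp in this pair went from -2.39 to -0.31 with medians over cells and counted as within 1 SD. Reln went from 1.11 to 0.11 without VGT3+ cell 3 and counted so too. A pseudocount of 0.1 moved 7 values and turned none: Pthlh to -13.14 for VGT3+ minus Pv+, -0.36 for VGT3+ minus Sst+ and 12.79 for Pv+ minus Sst+, Crhbp to -13.19 for VGT3+ minus Sst+, Reln to -7.70 for VGT3+ minus Sst+ and -9.77 for Pv+ minus Sst+, and Cxcl14 to 3.83 for VGT3+ minus Sst+. Leaving out 1 cell at a time moved none by more than 1 SD. The share of genes with all cells of a type above the others was 0.437% for VGT3+, 1.20% for Pv+ and 0.453% for Sst+ among genes averaging 10 TPM or more, and 5.62%, 1.11% and 0.788% in batch G709 alone, where VGT3+ has 2 cells. The shares of genes past 1 log2 unit stayed within 1.5 times. Of the 6 nearest genes, Spearman's correlation kept 1 for Pthlh, 2 for Crhbp, 1 for Reln and 2 for Cxcl14, and batch G709 alone kept 3 for Pthlh, 1 for Crhbp, 5 for Reln and 0 for Cxcl14. With 2 alternatives chosen after seeing the data, Crhbp reached 10 TPM in 1 Pv+ cell in place of 2 when taken per longest coding transcript, and 3.60% in place of 2.17% of genes varied less than Reln when genes at 0 in a Sst+ cell were left out. No paired analysis was possible because cell numbers name cells and no animal or culture links the types. With 5 cells from an unknown number of animals, no difference between types can be tested.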
